A study of Mus musculus with 6 samples.

Results

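The respiratory chain of the inner mitochondrial membrane was followed gene by gene in ILC2s (group 2 innate lymphoid cells) from the lungs of mice. Its members were the 96 protein-coding genes, of 16588 genes in the table, whose symbols name a subunit of complexes I to V (Nduf, Sdh, Uqcr, Cyc1, Cox4 to Cox8, Atp5 and their mt- counterparts). Of these, 83 are encoded in the nucleus and 13 in the mitochondrial genome. The members were chosen by symbol alone, and a further 6 matching symbols were left out because they are not annotated as protein coding. Ndufab1, a complex I subunit, and Atpif1, the inhibitor of ATP synthase, are outside the symbol pattern and are given with the related genes.

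The sample labels name lung as the source, whereas the title of the series names adipose tissue. RNA was sequenced from 3 libraries labelled Cnr2 KO, whose genotype is a knockout of the gene of the cannabinoid receptor CB2, and from 3 WT libraries labelled C57BL/6. All 6 came from mice given 0.5 µg of recombinant mouse IL-33 through the nose on each of 3 days, an alarmin cytokine that activates ILC2s. Lung cells were taken on day 4, and the sorted ILC2s were cultured for 18 h before cDNA was made from 10 pg of RNA. The labels give no age, no sex and no design of the knockout allele, and do not say whether replicates came from separate animals, and the p-values therefore measure no more than the spread among the 6 libraries, which may be technical. Levels are in CPM, a gene's count relative to the total count of its library after scaling by the trimmed mean of M values (TMM), and are listed for replicates 1, 2 and 3 in that order. Log2 fold changes are of libraries labelled Cnr2 KO over WT. Total counts were 17867548 to 19399801 in 5 libraries and 129617685 in WT replicate 2. The Cnr2 transcript went against the label, at 7.49 ± 0.0627 CPM in libraries labelled Cnr2 KO and 3.69 ± 0.449 CPM in WT (SD, n = 3 each), with log2 fold change 1.01 (SE 0.16, adjusted p = 2.11e-05). The labels do not say which part of the gene was deleted, so this gene-wide count cannot check the deletion, and the groups are called by their labels throughout. All 12 ILC2 marker genes were detected, and 8 of them rose and 3 fell. Gata3, the lineage factor of ILC2s, averaged 1073 CPM in libraries labelled Cnr2 KO and 288 CPM in WT (log2 fold change 1.90, adjusted p = 1.05e-16), and Il2ra, a chain of the interleukin 2 receptor, averaged 2680.1 CPM in libraries labelled Cnr2 KO and 5451 CPM in WT (log2 fold change -1.02, adjusted p = 4.06e-13). Their sum, most of it from Il5 and Il2ra, was 12245 to 13347 CPM in libraries labelled Cnr2 KO and 13287 to 13841 CPM in WT. Markers of other cells differed between the groups as well. The 4 T cell markers with a row, of 7, summed to 18.5 to 22.1 CPM in libraries labelled Cnr2 KO, against 7.25 to 7.66 CPM in WT. Most of that sum was Cd3g, at a mean of 17.2 CPM in libraries labelled Cnr2 KO and 4.65 CPM in WT, whereas Trac, the constant part of the T cell receptor alpha chain, fell to a mean of 0.464 CPM in libraries labelled Cnr2 KO, against 1.48 CPM in WT (log2 fold change -1.65, adjusted p = 0.00128). The 4 of 6 epithelial markers summed to 45.7 to 51.6 CPM in libraries labelled Cnr2 KO, against 12.6 to 27.1 CPM in WT. Epcam made up most of it, at a mean of 46.4 CPM in libraries labelled Cnr2 KO and 10.95 CPM in WT. The other epithelial markers had lower means in libraries labelled Cnr2 KO: Krt18 fell to 1.16 CPM, against 3.43 CPM in WT (log2 fold change -1.54, adjusted p = 0.00072), and the untested Cdh1 and Krt8 had 0.0883 and 0 CPM, against 0.782 and 3.51 CPM in WT. The only endothelial marker with a row, of 4, was Pecam1 at 39.3 to 40.3 CPM in libraries labelled Cnr2 KO, against 105.9 to 114.3 CPM in WT. The 6 of 9 myeloid markers summed to 3.65 to 7.26 CPM in libraries labelled Cnr2 KO, against 1.42 to 2.41 CPM in WT, where Adgre1 was at 0. The only B cell marker with a row, of 4, was Cd79b at 25.1 to 26.3 CPM in libraries labelled Cnr2 KO, against 16.1 to 17.2 CPM in WT, and the only NK cell marker with a row, of 4, was Gzma at 43.5 to 57.3 CPM in libraries labelled Cnr2 KO, against 55.7 to 76.2 CPM in WT. The 2 of 4 erythroid markers summed to 5.13 to 6.27 CPM in libraries labelled Cnr2 KO, against 0.735 to 1.27 CPM in WT. The part of other cells in the results below was not tested, and in bulk RNA fewer cells of a type and less RNA per cell cannot be told apart.

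Complexes I and II pass electrons from NADH and succinate to ubiquinone, complex III passes them from ubiquinol to cytochrome c, and complex IV passes them to oxygen. Complexes I, III and IV pump protons across the inner membrane, and complex V, the ATP synthase, makes ATP from their return. All complexes but complex II hold subunits from both genomes, so that nuclear and mitochondrial transcripts must supply parts of the same assembly. In activated lymphocytes the chain serves ATP production, the reoxidation of NADH and pyrimidine synthesis, which feeds electrons to ubiquinone.

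In libraries labelled Cnr2 KO, 7 of 9 nuclear genes of complex III, 14 of 37 nuclear genes of complex I and 7 of 17 nuclear genes of complex V fell. In complexes II and IV, 1 of 4 and 2 of 15 tested genes fell. Of the 12 members that rose, 7 were accessory subunits of complex I, a group of 30 tested genes. Of these 30, 23.3% rose, against 33.1% of all genes tested. Of the 92 members with enough counts to be tested, 12 rose and 35 fell in edgeR's quasi-likelihood test at a Benjamini-Hochberg adjusted p under 0.05, and 45 did not pass. The share called was 51.1%, whereas 66.3% of the 12150 genes tested across the table were called. Higher genes made up 13.04% of the members against a background of 33.1%, and lower genes 38.0% against a background of 33.2%. The share that fell was thus close to the background, and no test of the list as a whole was made. In 39 members every library labelled Cnr2 KO lay below every WT library, and in 13 every one lay above, together 52 genes without overlap. Over all genes tested, 34.8% lay below and 34.1% above, together 68.9%. The differences were small. The median log2 fold change was -0.10 over the members and 0.009 over all genes tested, and the median absolute log2 fold change was 0.17 over the members and 0.40 over all genes tested. A ratio of at least 5 to 4 between the groups, in either direction, was seen in 27 members (29.3%), against 7104 of all genes tested (58.5%), and one of at least 3 to 2 in 5 members (5.43%), against 4251 of all genes tested (35.0%).

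**Figure D1:**
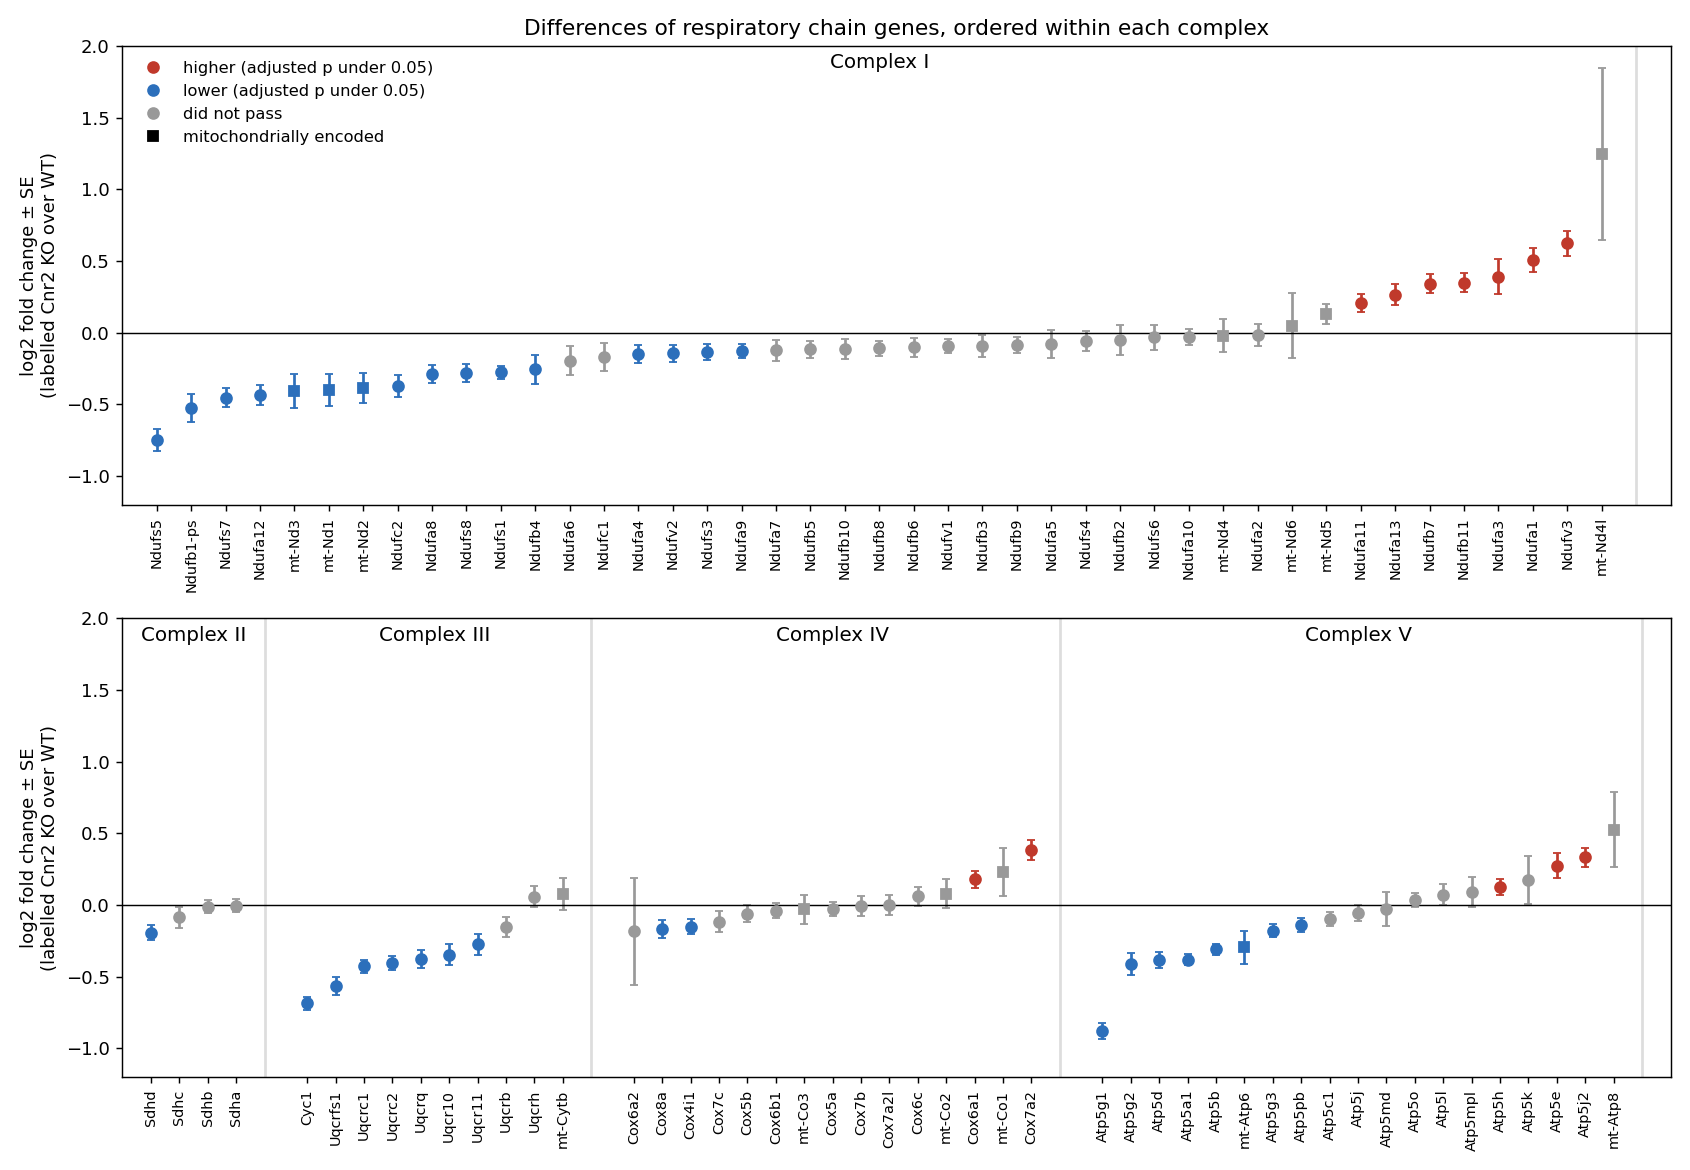
Log2 fold change (libraries labelled Cnr2 KO over WT) with its SE for 91 of the 92 members tested, ordered by value within complexes I to V; red points were higher and blue points lower at an adjusted p under 0.05 in edgeR, grey points did not pass, and squares are mitochondrially encoded genes. Complex III holds 7 blue points and no red one, and complex I spans values from -0.75 for Ndufs5 to 0.62 for Ndufv3 among its nuclear genes.

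Promoters of nuclear members were read for the letters of 3 motifs known from respiratory genes: the site of NRF1, nuclear respiratory factor 1 (GCGCA, any base, then GCGC), the ETS site bound by GABPA (CCGGAAG) and the site of YY1 (AANATGGC), on both strands, in the window from 250 bases before to 50 bases after each RefSeq start (GRCm38.p6). A promoter was at hand for 64 of the 79 nuclear members tested and for 9266 of the 12150 genes tested. The NRF1 letters stood in 16 of the 64 (25%), against 1051 of all promoters (11.3%), the ETS letters in 25% against 20.1%, and the YY1 letters in 23.4% against 9.53%. Among members the NRF1 letters stood in 3 of 12 promoters of genes that rose (25%), in 7 of 23 of genes that fell (30.4%) and in 6 of 29 of genes that did not pass (20.7%). Members that rose and members that fell thus both held the NRF1 letters. The promoters of 4 members are printed because they show that range: Uqcrc1 and Ndufs5, which fell and hold 2 and 1 NRF1 matches, Cox6a1, which rose and holds 2 NRF1 matches and 1 ETS match, and Atp5g1, the member that fell most, which holds none of the 3 motifs in this window. Capitals mark the matches, each sequence runs 5′ to 3′ on the strand of its gene, and a match describes letters, not binding.
Uqcrc1, chr9:108936398-108936697, plus strand: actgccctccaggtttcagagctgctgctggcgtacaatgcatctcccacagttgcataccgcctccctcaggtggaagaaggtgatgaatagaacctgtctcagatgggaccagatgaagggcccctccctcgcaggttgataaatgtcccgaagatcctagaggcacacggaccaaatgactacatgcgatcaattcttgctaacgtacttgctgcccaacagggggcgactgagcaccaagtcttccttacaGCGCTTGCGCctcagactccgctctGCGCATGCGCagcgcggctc
Ndufs5, chr4:123718137-123718436, minus strand: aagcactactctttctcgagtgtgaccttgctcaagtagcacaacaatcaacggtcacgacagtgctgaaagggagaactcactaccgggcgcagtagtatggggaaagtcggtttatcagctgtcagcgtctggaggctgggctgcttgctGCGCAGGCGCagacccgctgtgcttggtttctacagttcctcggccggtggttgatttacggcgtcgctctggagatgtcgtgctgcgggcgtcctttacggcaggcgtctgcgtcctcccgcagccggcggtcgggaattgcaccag
Cox6a1, chr5:115348909-115349208, minus strand: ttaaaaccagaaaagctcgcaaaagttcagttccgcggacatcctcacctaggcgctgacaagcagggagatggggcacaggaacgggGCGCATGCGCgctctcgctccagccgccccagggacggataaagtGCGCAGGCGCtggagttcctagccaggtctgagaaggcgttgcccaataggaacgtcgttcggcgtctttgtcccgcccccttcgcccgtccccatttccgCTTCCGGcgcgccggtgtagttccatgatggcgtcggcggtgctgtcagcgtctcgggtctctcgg
Atp5g1, chr11:96075582-96075881, minus strand: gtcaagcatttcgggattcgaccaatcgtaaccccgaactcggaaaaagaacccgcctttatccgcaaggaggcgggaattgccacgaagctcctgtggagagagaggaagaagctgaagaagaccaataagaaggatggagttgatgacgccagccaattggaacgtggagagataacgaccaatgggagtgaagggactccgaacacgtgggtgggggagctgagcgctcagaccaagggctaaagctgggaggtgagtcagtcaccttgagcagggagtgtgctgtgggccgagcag

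In complex I, 14 of the 37 nuclear genes fell, 7 rose and 16 did not pass. These shares were 37.8% lower and 18.9% higher, against 33.2% and 33.1% of all genes tested. With the 3 mitochondrial genes called, 17 complex I genes were lower, and 11 were without Cnr2 KO replicate 1. Among the nuclear core subunits, which include those that carry the flavin and the iron-sulfur clusters, 5 of the 6 described here fell and none rose. Ndufs7, whose iron-sulfur cluster hands electrons to ubiquinone, had 71.6, 82.7 and 82.6 CPM in libraries labelled Cnr2 KO, against 107, 101 and 117 CPM in WT, with log2 fold change -0.45 (SE 0.067, adjusted p = 7.37e-06). The groups did not overlap. The iron-sulfur subunits Ndufs8 (log2 fold change -0.28, adjusted p = 0.000542) and Ndufs1 (log2 fold change -0.28, adjusted p = 3.38e-05) fell too. Ndufv2 (log2 fold change -0.15, adjusted p = 0.033) and Ndufs3 (log2 fold change -0.13, adjusted p = 0.0488) fell by less, and both calls depended on single libraries. That of Ndufv2 was lost without Cnr2 KO replicate 1, 2 or 3 or WT replicate 2. That of Ndufs3 was lost without Cnr2 KO replicate 1 or 3 or WT replicate 1 or 2. Over all alternatives run, the log2 fold change ranged from -0.197 to -0.0744 for Ndufv2 and from -0.165 to -0.042 for Ndufs3. Ndufv1, which binds NADH and the flavin, had a mean of 179 CPM in libraries labelled Cnr2 KO and 191 CPM in WT and did not pass (log2 fold change -0.093, adjusted p = 0.0973), although its groups did not overlap either.

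The 30 nuclear accessory subunits of complex I, which surround the core and serve its assembly and stability, went both ways, with 8 lower (Ndufa4, counted here by its symbol, among them), 7 higher and a median log2 fold change of -0.10. Both shares, 26.7% lower and 23.3% higher, lay below the 33.2% and 33.1% of all genes tested. Ndufs5 (ENSMUSG00000028648.13, chromosome 4, 123712710 to 123718202, GRCm38), a subunit on the intermembrane side whose promoter is printed above, had the largest decrease among the complex I members. It had 23.6, 24.5 and 22.8 CPM in libraries labelled Cnr2 KO, against 40.2, 40.5 and 38.3 CPM in WT, with log2 fold change -0.75 (SE 0.075, adjusted p = 4.67e-08). Ndufb1-ps, a membrane arm subunit that is annotated as protein coding in spite of its symbol, had 12.0, 12.0 and 12.0 CPM in libraries labelled Cnr2 KO, against 18.4, 16.6 and 17.2 CPM in WT, with log2 fold change -0.53 (SE 0.10, adjusted p = 0.00012). Its annotated span overlaps Cpsf2, and with the counting strand not given in the sources used here, reads of the pair cannot be told apart. Ndufa12, a subunit of the matrix arm, had 40.9, 40.1 and 42.4 CPM in libraries labelled Cnr2 KO, against 59.0, 52.3 and 56.2 CPM in WT, with log2 fold change -0.43 (SE 0.069, adjusted p = 1.84e-05). In each of these 3 genes all libraries labelled Cnr2 KO lay below all WT libraries. Ndufc2 (log2 fold change -0.38, adjusted p = 0.000281) and Ndufa8 (log2 fold change -0.29, adjusted p = 0.000441) also fell without overlap. Leaving aside the 2 stricter thresholds, Ndufc2 and Ndufa8 kept their call in every alternative. The smaller decrease of Ndufa9 (log2 fold change -0.13, adjusted p = 0.0348) was lost without Cnr2 KO replicate 1 or WT replicate 1 or 3. That of Ndufb4 (log2 fold change -0.26, adjusted p = 0.0348) was lost without Cnr2 KO replicate 1 or 2 or WT replicate 1 or 2. Over all alternatives run, the log2 fold change ranged from -0.157 to -0.0245 for Ndufa9 and from -0.307 to -0.150 for Ndufb4.

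Accessory subunits that rose were led by Ndufv3 (ENSMUSG00000024038.17, chromosome 17, 31520115 to 31531331, GRCm38), a small subunit beside the flavoprotein at the tip of the matrix arm. Ndufv3 had 35.2, 34.9 and 42.5 CPM in libraries labelled Cnr2 KO, against 24.0, 23.4 and 26.2 CPM in WT, with log2 fold change 0.62 (SE 0.088, adjusted p = 4.52e-06). Ndufa1, a membrane subunit encoded on the X chromosome that is needed to join the arms, had 41.2, 37.0 and 34.7 CPM in libraries labelled Cnr2 KO, against 25.002, 28.1 and 25.6 CPM in WT, with log2 fold change 0.51 (SE 0.083, adjusted p = 2.58e-05). In both genes every library labelled Cnr2 KO lay above every WT library. Ndufa3, a membrane subunit, had 12.5, 10.9 and 10.9 CPM in libraries labelled Cnr2 KO, against 9.03, 8.46 and 8.77 CPM in WT, with log2 fold change 0.39 (SE 0.12, adjusted p = 0.00764). Ndufb11, another X-linked membrane arm subunit, had 48.7, 48.8 and 50.2 CPM in libraries labelled Cnr2 KO, against 37.2, 40.7 and 37.5 CPM in WT, with log2 fold change 0.35 (SE 0.068, adjusted p = 0.000188). Ndufa3 overlaps Tfpt and Ndufb11 overlaps Rbm10 in the annotation, so part of their counts could belong to those neighbours. Ndufb7 (log2 fold change 0.34, adjusted p = 0.000158), Ndufa13 (log2 fold change 0.26, adjusted p = 0.00429) and Ndufa11 (log2 fold change 0.21, adjusted p = 0.00942) also rose. Subunits of the same module thus differed in direction: Ndufa12 fell and Ndufv3 rose in the NADH-oxidising tip of the matrix arm.

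Complex II, which has no mitochondrially encoded subunit and also works in the citric acid cycle, had 1 of its 4 genes lower. This was 25%, against 33.2% of all genes tested. Sdha, the flavoprotein that oxidises succinate, had 489.5, 488 and 461 CPM in libraries labelled Cnr2 KO, against 491, 494 and 458 CPM in WT, with log2 fold change -0.0038 (SE 0.046, adjusted p = 0.947). Sdhb, the iron-sulfur subunit, had 256, 268 and 279 CPM in libraries labelled Cnr2 KO, against 271, 269 and 269 CPM in WT, with log2 fold change -0.010 (SE 0.046, adjusted p = 0.855). The 2 catalytic subunits overlapped between the groups, and the 95% intervals of their log2 fold changes ran from -0.10 to 0.093 for Sdha and from -0.11 to 0.086 for Sdhb. Of the membrane anchors, Sdhd had 193, 214 and 215 CPM in libraries labelled Cnr2 KO, against 235, 245 and 229 CPM in WT, with log2 fold change -0.19 (SE 0.052, adjusted p = 0.00286). Sdhc had 48.9, 45.1 and 45.5 CPM in libraries labelled Cnr2 KO, against 47.0, 48.0 and 53.5 CPM in WT, with log2 fold change -0.086 (SE 0.071, adjusted p = 0.295). Sdhd fell without overlap, but its call was lost when an offset for GC content and transcript length was added (log2 fold change -0.076, adjusted p = 0.155 in edgeR).

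In complex III, 7 of the 9 nuclear genes fell and none rose, with a median log2 fold change of -0.37. The share that fell was 77.8%, against 33.2% of all genes tested. Summed over the 9 genes, the level was 1194, 1277 and 1256 CPM in libraries labelled Cnr2 KO, against 1692, 1682 and 1731 CPM in WT, a ratio of 0.730 between the means. Cyc1 (ENSMUSG00000022551.8, chromosome 15, 76343523 to 76346260, GRCm38), cytochrome c1, which passes electrons to cytochrome c, had 212, 223 and 219 CPM in libraries labelled Cnr2 KO, against 361, 341 and 349 CPM in WT, with log2 fold change -0.68 (SE 0.045, adjusted p = 1.32e-10). Uqcrfs1, the Rieske iron-sulfur protein, had 129, 159 and 146 CPM in libraries labelled Cnr2 KO, against 205, 214 and 223 CPM in WT, with log2 fold change -0.56 (SE 0.063, adjusted p = 2.04e-07). Both redox subunits from the nucleus thus lay below all WT libraries in each library labelled Cnr2 KO. Uqcrc1 (ENSMUSG00000025651.14, chromosome 9, 108936633 to 108949623, GRCm38) and Uqcrc2 encode the large core proteins on the matrix side. Uqcrc1 had 418, 452 and 446 CPM in libraries labelled Cnr2 KO, against 574, 586 and 606 CPM in WT, with log2 fold change -0.43 (SE 0.045, adjusted p = 1.11e-07). Uqcrc2 had 172, 192 and 175 CPM in libraries labelled Cnr2 KO, against 232, 241 and 239 CPM in WT, with log2 fold change -0.40 (SE 0.050, adjusted p = 8.23e-07). Neither overlapped between the groups. Among the small subunits, Uqcrq (log2 fold change -0.37, adjusted p = 4.06e-05), Uqcr10 (log2 fold change -0.35, adjusted p = 0.000364) and Uqcr11 (log2 fold change -0.27, adjusted p = 0.00253) fell. Uqcrb, a ubiquinone-binding subunit, had a mean of 49.5 CPM in libraries labelled Cnr2 KO and 55.2 CPM in WT and did not pass (log2 fold change -0.15, adjusted p = 0.0621). Uqcrh, the acidic hinge protein of cytochrome c1, had a mean of 42.9 CPM in libraries labelled Cnr2 KO and 41.2 CPM in WT and did not pass (log2 fold change 0.059, adjusted p = 0.488). All 7 decreases kept their call under each alternative scaling, filter, tool, offset and left-out library. The partner from the mitochondrial genome, mt-Cytb, did not pass (log2 fold change 0.080, adjusted p = 0.55).

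**Figure D2:**
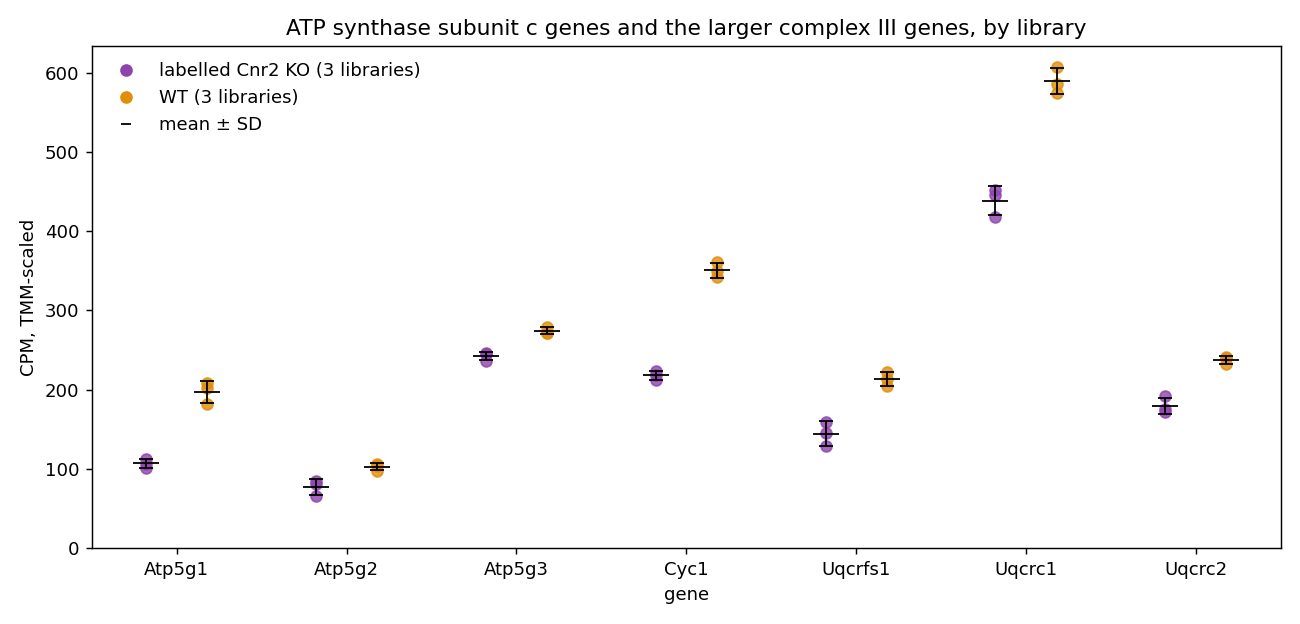
Level in TMM-scaled CPM of the 3 ATP synthase subunit c genes and of 4 complex III genes, with 1 point per library, purple for libraries labelled Cnr2 KO and orange for WT, and bars for the mean ± SD (n = 3 each). In each of the 7 genes all purple points lie below all orange ones, with the widest relative gap in Atp5g1, at a mean of 107 CPM in libraries labelled Cnr2 KO and 197 CPM in WT.

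Complex IV showed few changes, with 13.3% of its tested genes lower and 13.3% higher, against 33.2% and 33.1% of all genes tested. Of its 15 genes tested, 2 rose, 2 fell and 11 did not pass, and the 16 nuclear genes summed to 1001 ± 28.9 CPM in libraries labelled Cnr2 KO and 1014 ± 30.4 CPM in WT (SD, n = 3 each), a ratio of 0.988. Cox7a2, the form of subunit VIIa found in most tissues, had 74.9, 80.7 and 81.8 CPM in libraries labelled Cnr2 KO, against 60.2, 56.5 and 66.0 CPM in WT, with log2 fold change 0.38 (SE 0.067, adjusted p = 5.06e-05). Cox6a1, the liver-type form of subunit VIa, had 129.8, 129 and 135 CPM in libraries labelled Cnr2 KO, against 107, 113 and 128 CPM in WT, with log2 fold change 0.18 (SE 0.060, adjusted p = 0.0129). Cox4i1, the common form of the regulatory subunit IV, had 205, 217 and 230.3 CPM in libraries labelled Cnr2 KO, against 246, 232 and 247 CPM in WT, with log2 fold change -0.15 (SE 0.051, adjusted p = 0.0139). Cox8a, the smallest subunit, had 99.9, 101 and 109.9 CPM in libraries labelled Cnr2 KO, against 114, 109 and 128 CPM in WT, with log2 fold change -0.17 (SE 0.062, adjusted p = 0.0231). Cox7a2 kept its call under every alternative tool, scaling and left-out library. The other 3 calls did not: Cox6a1 was lost without Cnr2 KO replicate 3 (adjusted p = 0.0533), without WT replicate 1 (adjusted p = 0.0923) or without WT replicate 2 (adjusted p = 0.06), and Cox4i1 and Cox8a without Cnr2 KO replicate 1 (adjusted p = 0.0869 and 0.0905). The calls of Cox4i1 and Cox8a were also lost with upper-quartile scaling and with the offset for GC content and length. The groups overlapped for Cox8a, whose call was lost too without Cnr2 KO replicate 2 (adjusted p = 0.0919) or WT replicate 3 (adjusted p = 0.126).

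Several complex IV subunits exist as tissue forms, and in each set the common form carried nearly all counts. Cox4i2, the lung and hypoxia form of subunit IV, had 0 counts in each library labelled Cnr2 KO, which allows up to 3 counts, and 0, 8 and 2 counts in WT. Cox7a1, the heart and muscle form, had 2, 2 and 0 counts in libraries labelled Cnr2 KO, against 2, 9 and 2 counts in WT. Cox6b2, the testis form, had 1, 1 and 4 counts in libraries labelled Cnr2 KO, against 5, 25 and 9 counts in WT. These 3 genes and Cox5b-ps (3, 4 and 2 counts in libraries labelled Cnr2 KO, against 0, 25 and 1 counts in WT) were below the minimum for the test. Cox6a2, the muscle form of subunit VIa, was tested at a low level, with 1.18, 1.23 and 0.554 CPM in libraries labelled Cnr2 KO, against 1.37, 1.03 and 1.06 CPM in WT, and did not pass (log2 fold change -0.18, adjusted p = 0.678). Cox6b1, the common form of subunit VIb, had 99.8, 98.1 and 101 CPM in libraries labelled Cnr2 KO, against 102, 101 and 103 CPM in WT (log2 fold change -0.038, adjusted p = 0.524). Cox7a2l, which joins complexes III and IV into supercomplexes, had 46.5, 48.3 and 49.9 CPM in libraries labelled Cnr2 KO, against 51.3, 47.5 and 45.8 CPM in WT (log2 fold change 0.0020, adjusted p = 0.982). Neither passed. Ndufa4, named for complex I but now regarded as a subunit of complex IV, is counted in complex I here and not among the 15 complex IV genes. It had 51.3, 48.3 and 52.7 CPM in libraries labelled Cnr2 KO, against 57.8, 54.8 and 56.7 CPM in WT, with log2 fold change -0.15 (SE 0.064, adjusted p = 0.0461). Its call was lost without Cnr2 KO replicate 1 or 2 or WT replicate 1 or 3. Cox8b, Cox8c and Ndufa4l2 were not analysed here.

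In complex V, 41.2% of the nuclear genes were lower and 17.6% higher, against 33.2% and 33.1% of all genes tested. Of the 17 nuclear genes, 7 fell, 3 rose and 7 did not pass. Their sum was 4988, 5113 and 5019 CPM in libraries labelled Cnr2 KO, against 6111, 6073 and 6147 CPM in WT, a ratio of 0.825 between the means, and the largest share of it came from Atp5b, the catalytic beta subunit. Atp5b was also the highest member per length, at 1174 ± 21.6 CPM per kb in libraries labelled Cnr2 KO and 1454 ± 8.53 CPM per kb in WT (SD, n = 3 each). In the catalytic F1 head, Atp5b had 2264, 2281 and 2202 CPM in libraries labelled Cnr2 KO, against 2804, 2773 and 2780.0 CPM in WT, with log2 fold change -0.31 (SE 0.038, adjusted p = 7.87e-07). Atp5a1, the alpha subunit, had 940.4, 965 and 921 CPM in libraries labelled Cnr2 KO, against 1225, 1209 and 1245 CPM in WT, with log2 fold change -0.38 (SE 0.041, adjusted p = 1.2e-07). Atp5d, the delta subunit of the central stalk, had 218, 230.4 and 247 CPM in libraries labelled Cnr2 KO, against 289, 291 and 328 CPM in WT, with log2 fold change -0.38 (SE 0.057, adjusted p = 7.48e-06). All 3 fell without overlap between the groups. Atp5c1, the gamma subunit that turns inside the head, had a mean of 374 CPM in libraries labelled Cnr2 KO and 400.4 CPM in WT and did not pass (log2 fold change -0.10, adjusted p = 0.0797). Atp5e, the epsilon subunit, went the other way, with 30.3, 25.5 and 30.3 CPM in libraries labelled Cnr2 KO, against 24.4, 23.0 and 24.2 CPM in WT, and rose with log2 fold change 0.27 (SE 0.087, adjusted p = 0.00945). Its call was lost without WT replicate 2 (adjusted p = 0.0528).

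The ring of subunit c, which turns as protons pass, is encoded by 3 nuclear genes whose mature proteins are the same and whose import sequences differ. All 3 fell, and the difference between their fold changes was not tested. Atp5g1 (ENSMUSG00000006057.15, chromosome 11, 96068852 to 96075670, GRCm38) had 102, 113 and 107 CPM in libraries labelled Cnr2 KO, against 201, 181 and 209 CPM in WT, with log2 fold change -0.88 (SE 0.059, adjusted p = 1.4e-10), the largest decrease among the members. Atp5g2 had 65.6, 81.3 and 85.3 CPM in libraries labelled Cnr2 KO, against 97.6, 104 and 107 CPM in WT, with log2 fold change -0.41 (SE 0.076, adjusted p = 9.72e-05). Atp5g3 had 236, 246 and 245 CPM in libraries labelled Cnr2 KO, against 272, 279 and 271 CPM in WT, with log2 fold change -0.18 (SE 0.044, adjusted p = 0.00172). None of the 3 overlapped between the groups, and the call of Atp5g3 was lost with the offset for GC content and length (log2 fold change -0.066, adjusted p = 0.176 in edgeR). Of the CPM summed over the 3 genes, Atp5g1 held 25.1 ± 0.616% in libraries labelled Cnr2 KO and 34.3 ± 1.91% in WT (SD, n = 3 each). Atp5g3 held 56.9 ± 1.47% in libraries labelled Cnr2 KO and 47.8 ± 1.60% in WT. Atp5g2 held 18.1 ± 1.68% in libraries labelled Cnr2 KO and 17.9 ± 0.713% in WT. The shares of Atp5g1 and Atp5g3 did not overlap between the groups, whereas those of Atp5g2 did.

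The peripheral stalk holds the head still. Of its 4 nuclear genes, Atp5pb fell, with 314, 331 and 325 CPM in libraries labelled Cnr2 KO, against 349, 376 and 341 CPM in WT and log2 fold change -0.14 (SE 0.048, adjusted p = 0.0164). Atp5h rose, with 101, 101 and 106 CPM in libraries labelled Cnr2 KO, against 91.3, 90.8 and 99.5 CPM in WT and log2 fold change 0.13 (SE 0.056, adjusted p = 0.0495). Both differences were small. The call of Atp5pb was lost without Cnr2 KO replicate 1 or WT replicate 2, that of Atp5h without Cnr2 KO replicate 1, 2 or 3 or WT replicate 1 or 2. Over all alternatives run, the log2 fold change ranged from -0.173 to -0.0405 for Atp5pb and from 0.0983 to 0.230 for Atp5h. Atp5o (log2 fold change 0.036, adjusted p = 0.514) and Atp5j (log2 fold change -0.056, adjusted p = 0.377) did not pass. Among the 5 other small membrane subunits, Atp5j2, subunit f, had 47.9, 46.7 and 50.8 CPM in libraries labelled Cnr2 KO, against 38.6, 38.2 and 38.7 CPM in WT, with log2 fold change 0.33 (SE 0.067, adjusted p = 0.000253). The groups did not overlap for Atp5j2. Atp5k, Atp5l, Atp5md and Atp5mpl, small subunits in or beside the dimer interface, had log2 fold changes between -0.027 and 0.18 and did not pass.

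**Figure D3:**
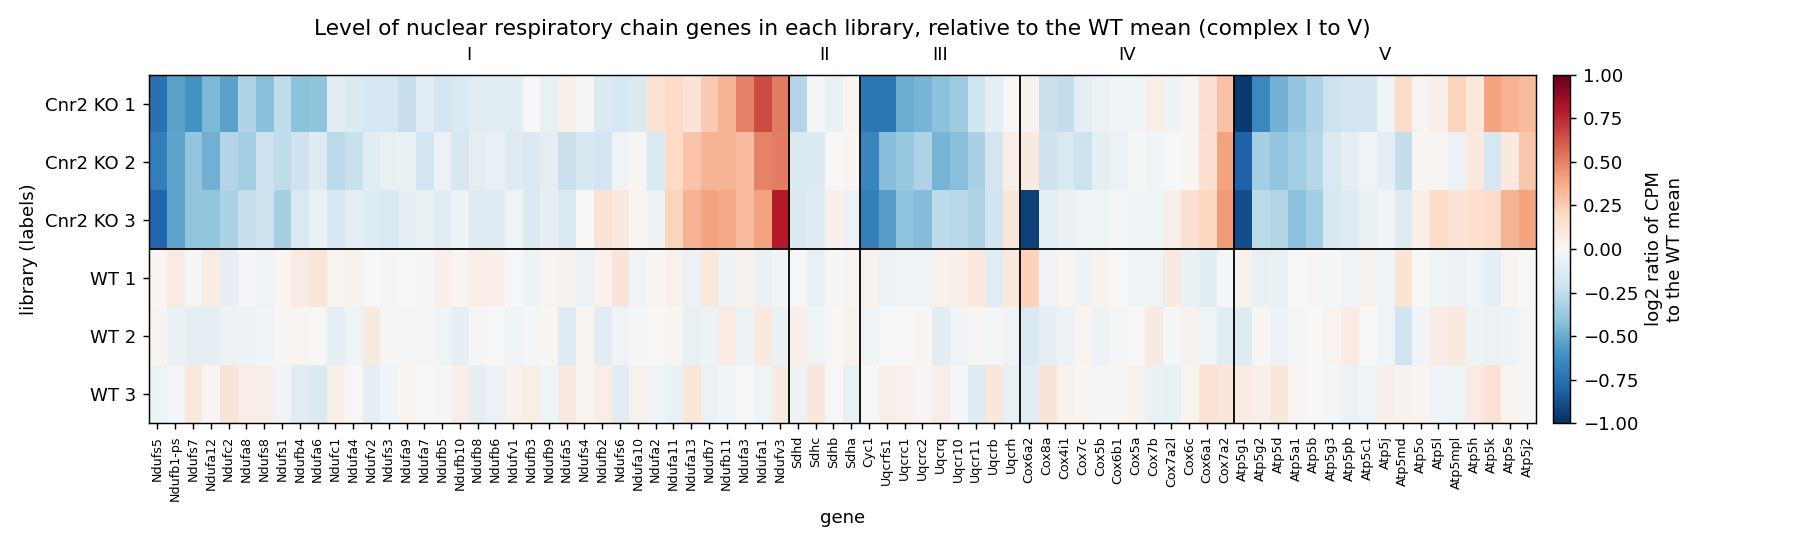
Level of 78 of the 79 tested nuclear members in each of the 6 libraries, as the log2 ratio of its CPM to the WT mean, with the 3 libraries labelled Cnr2 KO in the upper rows, the 3 WT libraries below, and genes ordered by fold change within complexes I to V. Red stands for a higher and blue for a lower level. The blue ends of complexes I, III and V and the red end of complex I run through all 3 libraries labelled Cnr2 KO. In complex IV, Cox7a2 is red in all 3, and Cox6a2, a gene near 1 CPM, is dark blue in replicate 3 alone.

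Summed over all 83 nuclear members, the level was 10391, 10706 and 10647 CPM in libraries labelled Cnr2 KO, against 12378, 12284 and 12449 CPM in WT, a ratio of 0.855 between the means, and the groups did not overlap. By complex the ratio of the nuclear sums was 0.916 for complex I, 0.966 for complex II, 0.730 for complex III, 0.988 for complex IV and 0.825 for complex V. These sums are weighted towards the most abundant genes, and no test was made on them or between complexes. Per length, the median over the tested nuclear genes of complexes I, II, III, IV and V was 59.1, 167, 104, 109 and 164 CPM per kb in libraries labelled Cnr2 KO, and 64.3, 179, 126, 92.6 and 221 CPM per kb in WT. These medians can fall on different genes in each group, so they do not measure a change. In complex V the median gene was Atp5h in libraries labelled Cnr2 KO and Atp5pb in WT. The median log2 fold changes of the same gene sets were -0.12, -0.048, -0.37, -0.032 and -0.056.

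The 13 mitochondrially encoded genes are transcribed from both strands of the mitochondrial genome as long precursors that are cut at tRNAs, so their transcripts share a source. Their summed level was 2774, 4385 and 4546 CPM in libraries labelled Cnr2 KO, against 3518, 4130.4 and 4061 CPM in WT. The ratio of the means was 1.00, and the groups overlapped. Cnr2 KO replicate 1 was the lowest of its group for 11 of the 13 genes, and WT replicate 1 of its group for 9. Without Cnr2 KO replicate 1, a choice made after seeing the data, the mean sum in libraries labelled Cnr2 KO was 4465 CPM, a ratio of 1.14 to the WT mean. The ribosomal RNAs mt-Rnr1 and mt-Rnr2, which are not members, summed to 413, 694 and 635 CPM in libraries labelled Cnr2 KO, against 522, 653 and 657 CPM in WT, with the lowest value again in Cnr2 KO replicate 1. Calls of mitochondrial genes are therefore given without that library where they change.

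**Figure D4:**
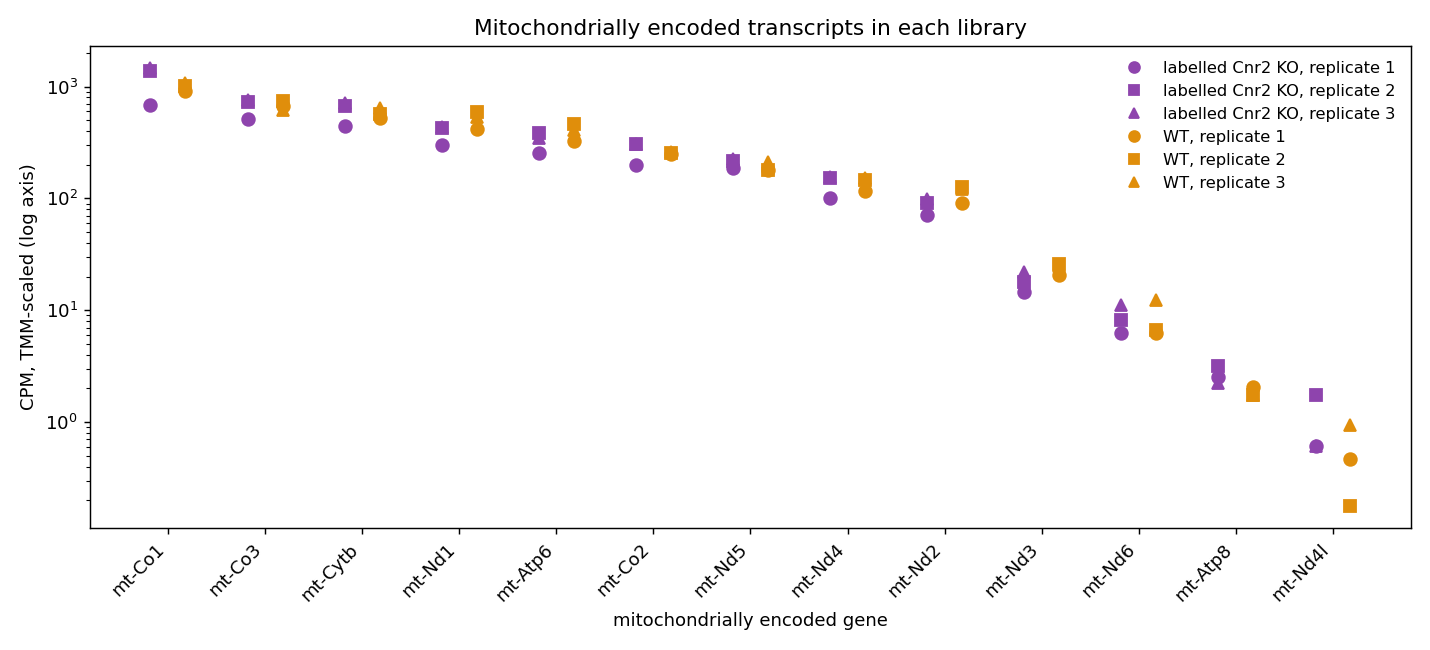
Level of the 13 mitochondrially encoded genes in each library, in TMM-scaled CPM on a log axis, purple for libraries labelled Cnr2 KO and orange for WT, with a different marker shape for each replicate. The purple circle, Cnr2 KO replicate 1, lies below the other purple markers for 11 of the 13 genes, and purple and orange overlap in all genes but mt-Atp8.

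Of the complex I subunits in the mitochondrial genome, which form the proton-pumping membrane arm, 3 of 7 were called lower (42.9%), against 33.2% of all genes tested. mt-Nd1 had 302, 424 and 439 CPM in libraries labelled Cnr2 KO, against 414, 593 and 529 CPM in WT, with log2 fold change -0.40 (SE 0.11, adjusted p = 0.00439). mt-Nd2 had 70.8, 91.9 and 98.3 CPM in libraries labelled Cnr2 KO, against 91.5, 126 and 122 CPM in WT, with log2 fold change -0.39 (SE 0.11, adjusted p = 0.00362). mt-Nd3 had 14.6, 17.7 and 22.01 CPM in libraries labelled Cnr2 KO, against 20.7, 25.8 and 24.8 CPM in WT, with log2 fold change -0.41 (SE 0.12, adjusted p = 0.00646). In all 3 the highest library labelled Cnr2 KO lay above the lowest WT library, so the groups overlapped in spite of the calls. With DESeq2, mt-Nd1 and mt-Nd2 were not called (adjusted p = 0.0964 and 0.0757), and without Cnr2 KO replicate 1 mt-Nd3 was not (adjusted p = 0.0531). mt-Nd4 had 101, 154 and 155 CPM in libraries labelled Cnr2 KO, against 116, 146 and 153 CPM in WT, with log2 fold change -0.021 (SE 0.12, adjusted p = 0.882). mt-Nd5 had 185, 214 and 225 CPM in libraries labelled Cnr2 KO, against 180.0, 179 and 213 CPM in WT, with log2 fold change 0.13 (SE 0.071, adjusted p = 0.112). mt-Nd6, from the other strand, had 6.32, 8.17 and 11.1 CPM in libraries labelled Cnr2 KO, against 6.30, 6.68 and 12.4 CPM in WT, with log2 fold change 0.049 (SE 0.23, adjusted p = 0.857). These 3 did not pass. mt-Nd4l had only 12, 33 and 11 counts in libraries labelled Cnr2 KO, against 9, 23 and 18 counts in WT, and its log2 fold change 1.24 (SE 0.60, adjusted p = 0.0767) is the least certain value of the set. Its reading frame overlaps that of mt-Nd4, as mt-Nd5 overlaps mt-Nd6 and mt-Atp8 overlaps mt-Atp6, so the counts of these pairs depend on how shared reads were assigned.

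Per length, mt-Co3 was the most abundant of the 13, at 852 ± 174 CPM per kb in libraries labelled Cnr2 KO and 869 ± 80.9 CPM per kb in WT (SD, n = 3 each). mt-Co1, which holds the site of oxygen reduction, had 681, 1376 and 1469 CPM in libraries labelled Cnr2 KO, against 912, 1013 and 1074 CPM in WT, with log2 fold change 0.23 (SE 0.17, adjusted p = 0.228). mt-Co2, which takes electrons from cytochrome c, had 199.8, 305 and 305 CPM in libraries labelled Cnr2 KO, against 251, 257 and 257 CPM in WT, with log2 fold change 0.081 (SE 0.10, adjusted p = 0.501). mt-Co3 had 511, 734 and 759 CPM in libraries labelled Cnr2 KO, against 675, 748 and 621 CPM in WT, with log2 fold change -0.030 (SE 0.10, adjusted p = 0.801). In these genes Cnr2 KO replicate 1 was the lowest of the 6 libraries. mt-Cytb, cytochrome b of complex III, had 445, 671 and 715 CPM in libraries labelled Cnr2 KO, against 521, 570.0 and 641 CPM in WT, with log2 fold change 0.080 (SE 0.11, adjusted p = 0.55). None of the 4 passed. Without Cnr2 KO replicate 1, mt-Co1 (log2 fold change 0.51, adjusted p = 3.12e-07), mt-Co2 (0.26, adjusted p = 0.00015), mt-Cytb (0.26, adjusted p = 0.00175) and mt-Nd5 (0.21, adjusted p = 0.012) were called higher. That fit has 2 libraries in the group labelled Cnr2 KO. mt-Nd5 was also called higher without WT replicate 3 (adjusted p = 0.0129), as was mt-Nd4l (adjusted p = 0.0167).

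The ATP synthase subunits of the mitochondrial genome build the proton channel. mt-Atp6 had 254, 384 and 345 CPM in libraries labelled Cnr2 KO, against 327, 465 and 410.5 CPM in WT, with log2 fold change -0.30 (SE 0.12, adjusted p = 0.031). It was called lower, with overlap between the groups. The call was lost without Cnr2 KO replicate 1 or 3 or WT replicate 2 or 3 (adjusted p = 0.0518 to 0.217) and in DESeq2 (adjusted p = 0.248). mt-Atp8 had 2.52, 3.15 and 2.22 CPM in libraries labelled Cnr2 KO, against 2.05, 1.74 and 1.74 CPM in WT, with log2 fold change 0.52 (SE 0.26, adjusted p = 0.0863), and was the one mitochondrial gene without overlap between the groups. In all, 4 of the 13 mitochondrial genes were called lower in edgeR, and 1, mt-Nd3, was in DESeq2. The edgeR shares were 30.8% lower and 0% higher, against 33.2% lower and 33.1% higher over all genes tested. The share that fell was thus close to the background. Groups without overlap, seen here in 1 gene, made up 68.9% of all genes tested. Without Cnr2 KO replicate 1, 2 were called lower and 4 higher. The genes called higher without that library were not the ones called lower with it.

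Factors that build the complexes, which are not members, were read from lists of assembly genes. These lists and those of the next paragraphs were chosen with earlier results of these data known. Of 17 complex I assembly factors tested, 13 fell and 1 rose, with a median log2 fold change of -0.38. Ndufaf4 had a mean of 18.8 CPM in libraries labelled Cnr2 KO and 45.7 CPM in WT, with log2 fold change -1.28 (adjusted p = 7.32e-11), and Ndufaf6 (log2 fold change -1.33, adjusted p = 3.58e-09) and Ecsit (log2 fold change -0.47, adjusted p = 1.39e-06) also fell, whereas Tmem126b, a factor of the membrane arm, rose (log2 fold change 0.45, adjusted p = 0.000182). Of 7 complex III factors, 6 fell and none rose (median -0.57), among them Hccs, which attaches heme to cytochromes c and c1 (log2 fold change -0.75, adjusted p = 2.98e-10), Uqcc1 (log2 fold change -0.61, adjusted p = 3.88e-07) and Bcs1l, which inserts the Rieske protein (log2 fold change -0.57, adjusted p = 6.72e-05). Of 26 complex IV factors, 13 fell and 3 rose (median -0.20), although few structural genes of that complex passed. Sco1 (log2 fold change -1.64, adjusted p = 7.79e-12) and Sco2 (log2 fold change -1.47, adjusted p = 8.91e-10), which deliver copper to mt-Co2, and Lrpprc, which stabilises mitochondrial messages (log2 fold change -0.79, adjusted p = 4.44e-11), had the smallest p. Sco1 had 19.3, 17.5 and 15.9 CPM in libraries labelled Cnr2 KO, against 54.3, 59.9 and 49.5 CPM in WT. Of 4 complex II factors, Sdhaf1 alone fell (log2 fold change -0.87, adjusted p = 3.92e-07). Of 6 complex V factors and its inhibitor, Tmem70 (log2 fold change -0.86, adjusted p = 2.94e-09) and Atpaf2 (log2 fold change -0.40, adjusted p = 9.94e-06) fell, and Atpif1 had a mean of 47.3 CPM in libraries labelled Cnr2 KO and 47.1 CPM in WT and did not pass (log2 fold change 0.0081, adjusted p = 0.924). The background is the same 33.2% lower and 33.1% higher.

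Ubiquinone and cytochrome c carry electrons between the complexes. Of 14 genes of cytochrome c and ubiquinone synthesis, 13 fell and 1 rose, with a median log2 fold change of -0.56. For the lists in this paragraph, the background is 33.2% lower and 33.1% higher over all genes tested. Coq4, a scaffold of the ubiquinone-making enzymes, had 7.09, 6.36 and 6.32 CPM in libraries labelled Cnr2 KO, against 30.9, 25.3 and 26.1 CPM in WT, with log2 fold change -2.05 (SE 0.11, adjusted p = 7.44e-12). Coq5, a methyltransferase of the pathway (log2 fold change -0.71, adjusted p = 6.59e-09), and Coq7, its last hydroxylase (log2 fold change -0.75, adjusted p = 4.67e-08), fell as well. Cycs, cytochrome c itself, fell (log2 fold change -0.20, adjusted p = 0.000625), and Coq10a, which binds ubiquinone, rose (log2 fold change 0.32, adjusted p = 0.0248). Of 8 genes of other routes to ubiquinone or cytochrome c, 4 fell and 3 rose: Dhodh of pyrimidine synthesis (log2 fold change -1.09, adjusted p = 7.52e-11) and Gpd2 of the glycerol phosphate shuttle (log2 fold change -0.50, adjusted p = 4.16e-07) fell, and Suox, sulfite oxidase, rose (log2 fold change 0.86, adjusted p = 3.33e-11). Ndufab1, the mitochondrial acyl carrier protein and complex I subunit outside the symbol pattern, had 68.7, 65.0 and 70.4 CPM in libraries labelled Cnr2 KO, against 121, 123 and 118 CPM in WT, with log2 fold change -0.83 (SE 0.055, adjusted p = 1.21e-10), a larger decrease than that of Ndufs5.

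Of 19 genes that copy, maintain or transcribe mitochondrial DNA, 11 fell and 4 rose (median -0.27). For all lists in this paragraph, the background is 33.2% lower and 33.1% higher over all genes tested. Twnk, the replicative helicase (log2 fold change -1.26, adjusted p = 8.18e-11), Top1mt, a topoisomerase (log2 fold change -1.33, adjusted p = 2.85e-10), and Tfb2m, a transcription factor for mitochondrial promoters (log2 fold change -0.93, adjusted p = 4.65e-09), had the smallest p. Tfam, which packs mitochondrial DNA, was lower (log2 fold change -0.24, adjusted p = 0.00166). Of 10 genes used as markers of mitochondrial content, 9 fell and none rose (median -0.35). Hspd1, the matrix chaperonin, had 308, 327 and 310.5 CPM in libraries labelled Cnr2 KO, against 959.8, 1003 and 1077 CPM in WT, with log2 fold change -1.69 (SE 0.049, adjusted p = 1.14e-15), and Tomm20, an import receptor, had a mean of 116 CPM in libraries labelled Cnr2 KO and 232 CPM in WT and fell (log2 fold change -1.01, adjusted p = 2.31e-11). Cs, citrate synthase, did not pass (log2 fold change -0.029, adjusted p = 0.554). Of 9 genes of oxidant defence in the matrix and uncoupling, 5 fell and 2 rose: Prdx3 (log2 fold change -0.82, adjusted p = 2.52e-11), Txn2 (log2 fold change -0.78, adjusted p = 3.92e-11) and Gpx1 (log2 fold change -0.76, adjusted p = 7.23e-09) fell, and Gpx4 (log2 fold change 0.45, adjusted p = 9.14e-08) and Ucp2 (log2 fold change 0.28, adjusted p = 8.47e-05) rose.

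Of 9 transcription factors and coactivators known to drive respiratory genes, 2 rose and 1 fell, against 33.1% higher and 33.2% lower over all genes tested. Nrf1 had 132, 131 and 126 CPM in libraries labelled Cnr2 KO, against 115, 117 and 121 CPM in WT, with log2 fold change 0.13 (SE 0.050, adjusted p = 0.0234). Creb1 had a mean of 51.1 CPM in libraries labelled Cnr2 KO and 40.0 CPM in WT and rose (log2 fold change 0.35, adjusted p = 0.000682). Pprc1, a coactivator of the PGC-1 family, was lower, with 136, 139 and 130.4 CPM in libraries labelled Cnr2 KO, against 206, 186 and 184 CPM in WT and log2 fold change -0.51 (SE 0.053, adjusted p = 8.97e-08). Gabpa (log2 fold change -0.014, adjusted p = 0.852), Gabpb1 (log2 fold change -0.068, adjusted p = 0.385), Ppargc1b (log2 fold change -0.15, adjusted p = 0.481), Esrra (log2 fold change -0.0059, adjusted p = 0.962), Yy1 (log2 fold change -0.10, adjusted p = 0.321) and Ppard (log2 fold change 0.23, adjusted p = 0.624) did not pass. Perm1 was below the minimum for the test, and Ppargc1a and Ppara had no row among the deposited counts.

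**Figure D5:**
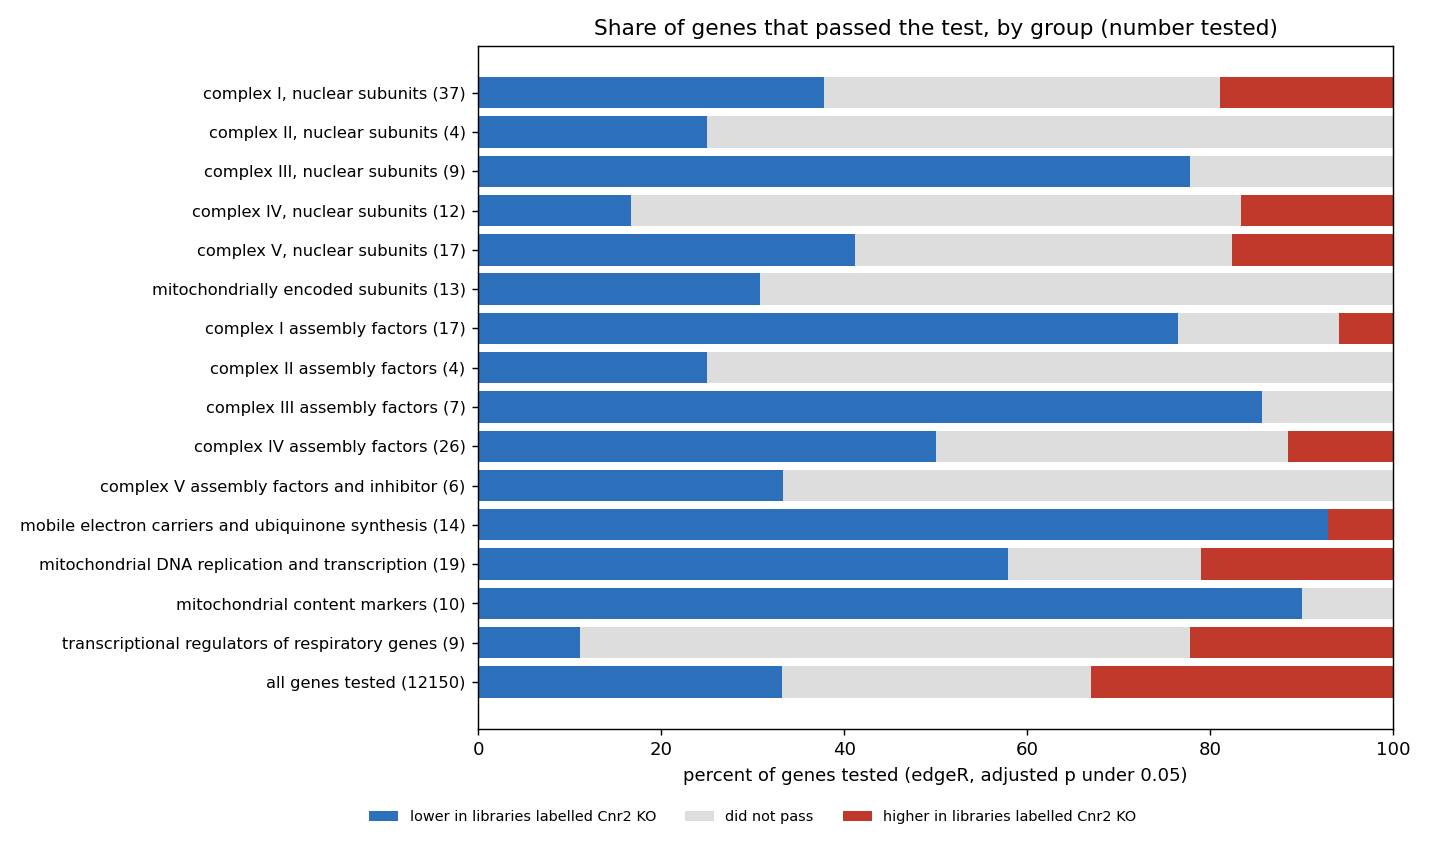
Percent of tested genes that were lower (blue) or higher (red) in libraries labelled Cnr2 KO at an adjusted p under 0.05 in edgeR, for the subunits of each complex, the related gene lists and all 12150 genes tested, with the number tested in brackets. The background bar shows 33.2% lower and 33.1% higher. The longest blue bars are those of ubiquinone and cytochrome c genes (13 of 14), content markers (9 of 10) and complex III assembly factors (6 of 7).

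Many nuclear members are short transcripts, so length was set beside the calls. The median transcript length was 624 bases for the 12 nuclear members that rose, 971 bases for the 31 that fell and 669.5 bases for the 36 that did not pass. Over the 79 nuclear members the Spearman correlation of the log2 fold change was -0.23 with length, -0.13 with GC content and -0.33 with mean CPM, a description over genes that share the same 6 libraries. Over 12143 genes with an annotated length it was 0.15, -0.013 and -0.080. Of the 530 tested genes no longer than 732 bases, the median of the nuclear members, 33.8% were lower and 23.4% higher, with a median log2 fold change of -0.11. With an offset for GC content and length, 24 members were lower and 14 higher, and 7 of the lower ones were complex III genes. With the same offset, 34.3% of 12143 genes tested were lower and 31.5% higher. Beyond this offset, the part of length or library composition was not tested.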

How the data were processed

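The submitters' processing notes name Partek 10.0, STAR 2.7.8, DESeq2 and the mm10 mouse build without saying what each was used for. How reads were counted, and whether by strand, is not given in the sources used here. Values in the deposited table are expected counts, that is, estimated counts per gene that need not be whole: 59.1 to 81.2% of a library's values lay within 0.02 of a whole number, and the lowest total over the 6 libraries was 10. The annotated spans of 48 of the 96 members overlap another gene, and members with pseudogene copies may share reads with them, so those counts are uncertain to that extent.

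Counts were rounded and fitted over the whole table with edgeR 4.0.16 (quasi-likelihood, TMM, filterByExpr with minimum count 10 and minimum total 15, genotype as the only term) in R 4.3.3, with Benjamini-Hochberg adjustment over 12150 genes; 4438 were not tested. SE is the absolute log2 fold change over the square root of F. Every adjusted p comes from edgeR in this way except where DESeq2 is named beside it, also with a library left out. The script was tested on simulated data. Positions and one transcript length per gene are from GENCODE M21 (GRCm38), which matched 16573 of 16588 genes; promoters are from RefSeq (GRCm38.p6).

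The members were picked by their symbols alone, but the symbol pattern and the gene lists were set with earlier results of these data known. Per-library values are given for up to 4 called genes per direction and complex with the largest fold change at a mean of 5 CPM or more, for all mitochondrial genes, for tissue forms of a subunit, for subunit c and for complex II; of each related list up to 3 called genes with the smallest p are named, and the regulators in full. Other genes named were chosen after their values were seen. The values of 1 complex I gene are not reported here, although it is part of the counts. Alternatives were DESeq2 size factors, total-count and upper-quartile scaling, no filter and a filter of 1 CPM in 3 libraries, a replicate block, thinning of WT replicate 2, a GC and length offset, DESeq2 1.42.0, limma-voom (limma 3.58.1) with quality weights, an adjusted p under 0.01, a minimum ratio of 5 to 4 between the groups and leaving out each library. Total counts were 17867548 to 19399801 in 5 libraries, and WT replicate 2, with 129617685, has the smallest relative counting error. Whether its values are more precise beyond counting error was not tested. The 95% intervals of log2 fold changes come from the fit and hold the spread between libraries, and limits on a count of 0 cover counting error only.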

Additional observations from a re-analysis of the deposited data

How the results depend on the processing

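No called result changed direction under the alternatives run. Leaving aside the 2 stricter thresholds, 9 of the 12 higher and 21 of the 35 lower members kept their call throughout, among them all 7 lower complex III genes and Atp5g1, Atp5g2, Atp5d, Atp5a1 and Atp5b. The members lost somewhere were, among higher ones, Atp5e, Atp5h and Cox6a1, and among lower ones Sdhd, Cox4i1, Cox8a, Atp5g3, Atp5pb, Ndufa4, Ndufa9, Ndufb4, Ndufs3, Ndufv2 and the 4 mitochondrial genes. Atp5c1, Ndufa6, Ndufb8, Uqcrb, Atp5o, mt-Atp8, mt-Nd4l, mt-Nd5, mt-Co1, mt-Co2 and mt-Cytb were called under at least 1 alternative and not in the fit as reported.

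With a ratio of at least 5 to 4 required beside the adjusted p, 7 members were higher and 18 lower, with lower counts of 8 in complex I, 0 in complex II, 0 in complex IV and 4 in complex V. With an adjusted p under 0.01, complex IV had 0 lower. With the GC and length offset, 34.3% of all genes tested were lower and 31.5% higher. Of the members, 24 were lower and 14 higher, with 0 lower in complex II, 0 in complex IV and 5 in complex V. Apart from the lower complex III genes, the others were in complex I, where fewer were lower than the 17 as reported. The median log2 fold change of respiratory chain genes with this offset was -0.014, against -0.095 as reported. With upper-quartile scaling that median was -0.056, complex IV had 0 lower and 9 members lost their call, while the median over all genes was 0.049. DESeq2 called 11 higher and 31 lower, with 1 mitochondrial gene lower.

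Over the 6 fits that each left out 1 library, mitochondrially encoded genes lower ranged from 2 to 4, complex I genes lower from 11 to 17 and complex IV genes lower from 0 to 2, with the lowest value of each without Cnr2 KO replicate 1. Whether the replicate numbers pair the libraries was not settled. Deviations of same-numbered libraries correlated at 0.066, 0.0057 and 0.043, and those of other pairs at -0.068 to 0.029. Replicates 1 and 3 of each group correlated best with their own number, whereas neither Cnr2 KO replicate 2 nor WT replicate 2 did. With a replicate block, 13 members were higher and 36 lower, with mt-Nd5 and Atp5c1 added. The depth of 5 libraries limits genes with few counts, such as mt-Nd4l and Cox6a2.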
